A study of Mus musculus with 19 samples.

Results

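The genes that encode the cyclin-dependent kinase (CDK) inhibitors were followed in bulk RNA sequencing of the mouse cornea and conjunctiva under calorie restriction (CR) or ad libitum feeding (AL). The 7 genes were taken by symbol from both tables of normalized counts: Cdkn1a, Cdkn1b, Cdkn1c, Cdkn2a, Cdkn2b, Cdkn2c and Cdkn2d, out of 24547 genes listed once. All 7 were present in both tables, and each was followed in all 19 libraries.

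The cornea groups held 5 AL and 5 CR libraries, and the conjunctiva groups 4 AL and 5 CR libraries. All mice were C57BL/6 by the labels, and C57BL/6J by the study's methods, with no transgene or deletion named, and the study's methods give them as female, with the cornea sample being scraped corneal epithelium and the conjunctiva an excised piece of tissue. The study itself describes adult mice kept on either diet for months, into middle age, with the CR mice given a reduced ration. The deposited design text calls the mice young, and the sample titles carry the marks 6M and 50W, which the labels do not explain. Libraries are named here by diet and the number in their title, so the cornea CR libraries are CR 1, 2, 3, 4 and 7. Nothing in the labels says whether each library is 1 mouse or a pool, while the study's figure legends count the compared groups as mice.

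CDK inhibitors bind CDKs or their complexes with cyclins and hold a cell in the G1 phase, before DNA replication. The CIP/KIP family (p21 from Cdkn1a, p27 from Cdkn1b, p57 from Cdkn1c) binds a wide range of cyclin-CDK complexes. The INK4 family (p16 from Cdkn2a, p15 from Cdkn2b, p18 from Cdkn2c, p19 from Cdkn2d) binds CDK4 and CDK6 and keeps them from their D-type cyclins, which keeps the retinoblastoma protein active as a brake on E2F target genes. Several of these genes are used as markers of cellular senescence, a lasting arrest of division, and in layered epithelia such as the ocular surface they are also part of the normal exit from the cell cycle.

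The cornea libraries held 10354377 to 14681466 counted reads each and the conjunctiva libraries 10727077 to 14433802. Genes with 0 reads made up 40.5% ± 2.70 (SD, n = 5) of all genes in cornea AL and 44.4% ± 3.06 (SD, n = 5) in cornea CR libraries. They made up 35.3% ± 1.90 (SD, n = 4) in conjunctiva AL and 37.1% ± 2.29 (SD, n = 5) in conjunctiva CR libraries. Krt12, the keratin of the corneal epithelium, had a mean of 306448 normalized counts in cornea AL and 3006 in conjunctiva AL libraries. The 4 goblet cell markers summed to at most 99.9 normalized counts in any cornea library and to at least 3293 in every conjunctiva library. Not every marker separated the tissues. Krt13, a keratin of the conjunctival list, averaged 27224 in cornea AL and 21937 in conjunctiva AL, and Krt14, a basal keratin of the corneal list, averaged 6132 and 13634.

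A few libraries stood apart and recur below. Cornea CR 7 had the largest share of genes at 0 of all libraries, at 47.6%, the lowest summed count of the 6 corneal epithelium markers in the cornea (481422, against 571706 to 700996 in the other cornea libraries) and the highest of the 6 fibroblast markers (2122, against 425 to 1864). Its sum over the 6 conjunctival epithelium markers was also the highest in the cornea, at 65373, against 26287 to 42641. Cornea AL 1 had 1651 normalized counts over 4 lacrimal gland markers, against 48.3 to 410 in the other cornea libraries, and no cornea estimate of a CDK inhibitor gene turned sign without it. Conjunctiva CR 5 had 5014 normalized counts over the 5 meibomian gland markers, against 8.18 to 189 in the other conjunctiva libraries, and the lowest fibroblast sum, 25864.

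In neither tissue did a CDK inhibitor gene pass the test for a diet difference (limma on log2(normalized count + 1), Benjamini-Hochberg adjusted p under 0.05 over all genes and a fold over 1.5). A gene was tested where its mean reached 10 normalized counts, which 7 of 7 members did in the cornea and 6 of 7 in the conjunctiva. Cdkn2a fell under that level in the conjunctiva. The count called was 0 of 7 in the cornea, where 1.22% of 12277 tested genes were called, and 0 of 6 in the conjunctiva, where 0.359% of 13928 were called. With so low a background, no call among so few genes is not in itself a result about them. A weighted linear fit on the log2 scale of the recovered reads (limma voom) also called 0 of 7 and 0 of 6. At an unadjusted p under 0.05 there were 2 of 7 members in the cornea (18.1% of all tested genes) and 1 of 6 in the conjunctiva (9.40% of all tested genes). All 3 estimates were lower, a direction that held for 9.55% of tested genes in the cornea and 4.87% in the conjunctiva at that p. The AL and CR groups of every member overlapped in both tissues. Groups that did not overlap were found for 3.97% (cornea) and 3.86% (conjunctiva) of all tested genes.

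By family, the estimates had these directions. In the cornea all 4 INK4 genes had a lower CR estimate, the median log2 change being -0.32, and all 3 INK4 genes tested in the conjunctiva did as well, with a median of -0.12. Among these, Cdkn2a in the cornea turned to 0.07 with quantile normalization, to 0.18 when each library's share of undetected genes was a covariate and to above 0 in 4 analyses without 1 library, and Cdkn2c in the conjunctiva turned to 0.03 with the replicate number as a block and to above 0 in 3 analyses without 1 library. The 3 CIP/KIP genes had a median change of -0.19 in the cornea, with 1 of 3 higher, and of 0.04 in the conjunctiva, with 2 of 3 higher. Under quantile normalization these medians were 0.26 and -0.07, and with RPM scaling (reads over the library's total) the conjunctiva median was -0.05, so the CIP/KIP genes had no direction that held across scalings. Over all tested genes the medians were -0.03 (cornea) and -0.02 (conjunctiva).

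**Figure D1:**
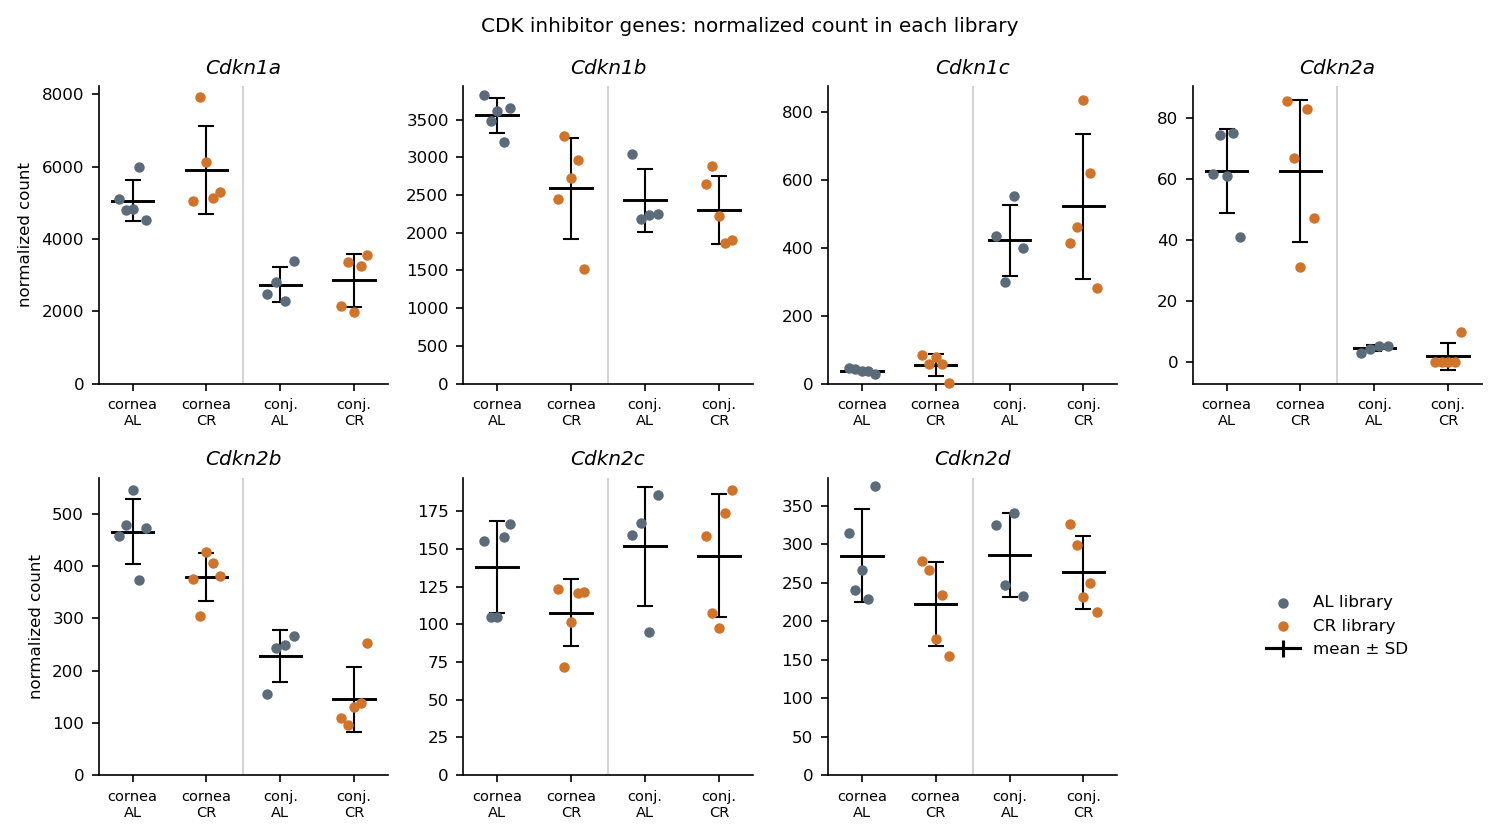
Normalized count (y axis, 1 panel per gene, each on its own linear scale) of the 7 CDK inhibitor genes in each library, by tissue and diet; points are libraries, horizontal bars are means and whiskers are SD. The 2 tissues were normalized separately. The AL and CR points overlap in every panel, and the single low Cdkn1c point in the cornea and the single Cdkn2a point above the others in conjunctiva CR are cornea CR 7 and conjunctiva CR 5.

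Cdkn1a encodes p21, the inhibitor induced by p53 after DNA damage and also raised when keratinocytes stop dividing. It lies on the forward strand of chromosome 17 (GRCm38, chr17:29090976-29100727, GENCODE annotation) with 4 blocks of exon sequence and 3553 bases of exon. One unconfirmed gene model on the other strand overlaps an exon of it. The tables do not list that model, and since the sources do not settle whether strand was used for counting, reads from either strand cannot be told apart.

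In the cornea, Cdkn1a stood at 5118, 4800, 4825, 6002 and 4527 normalized counts in AL 1 to AL 5. In CR 1, 2, 3, 4 and 7 it stood at 5051, 7934, 6130, 5139 and 5289. Of the 5 CR libraries, 4 were above the AL mean and 2 above every AL library, and CR 2 was the highest. The log2 change was 0.21 (SE 0.12, 95% interval -0.05 to 0.47, limma adjusted p = 0.384). That interval lay within a 1.5-fold change in both directions. Without CR 2 the estimate was 0.10, with an adjusted p of 0.701.

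In the conjunctiva, Cdkn1a stood at 2468, 2805, 2270 and 3393 normalized counts in AL 1, 3, 4 and 5. In CR 1 to CR 5 it stood at 2150, 3373, 1980, 3240 and 3543. The CR libraries lay in a low pair and a high group of 3 on either side of most AL libraries, with overlap throughout. By limma the log2 change was 0.04 (SE 0.19, 95% interval -0.37 to 0.44, limma adjusted p = 0.969), again within a 1.5-fold change in both directions. Its sign turned when AL 1, AL 4, CR 2, CR 4 or CR 5 was left out, and the 9 analyses that left out 1 library ran from -0.05 to 0.16.

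Cdkn1b encodes p27, an inhibitor whose protein level is set largely by SCF-SKP2 ubiquitination and whose transcription is driven by FOXO factors. It lies on the forward strand of chromosome 6 (GRCm38, chr6:134920401-134925513), with 2 blocks of exon sequence and 4552 bases of exon. Its promoter is shown because this gene had the smallest p of the 7. The 250 bases before its RefSeq start (chr6:134920151-134920400, GRCm38.p6) hold 1 GC box (GGGCGG on either strand), printed in capitals:
Cdkn1b: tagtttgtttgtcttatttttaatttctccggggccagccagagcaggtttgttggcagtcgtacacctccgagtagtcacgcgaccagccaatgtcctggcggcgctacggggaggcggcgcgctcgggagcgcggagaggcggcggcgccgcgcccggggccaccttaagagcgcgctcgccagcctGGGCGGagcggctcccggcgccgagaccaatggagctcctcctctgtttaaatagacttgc

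In the cornea, Cdkn1b stood at 3832, 3478, 3621, 3211 and 3653 normalized counts in AL 1 to AL 5. In CR 1, 2, 3, 4 and 7 it stood at 2448, 3289, 2721, 2966 and 1520. All 5 CR libraries were below the AL mean, and 4 of them were below every AL library. CR 2 fell among the AL libraries, so the groups overlapped. The means were 3559 ± 232 (SD, n = 5) under AL and 2589 ± 673 (SD, n = 5) under CR, a ratio of 0.727.

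The log2 change of Cdkn1b in the cornea was -0.50 (SE 0.16, 95% interval -0.85 to -0.16, limma adjusted p = 0.130), so it did not pass after adjustment. The largest part of the CR spread came from CR 7. Without that library the change was -0.32 (adjusted p = 0.126), and without CR 2 it was -0.60 (adjusted p = 0.106). Over all 10 analyses that left out 1 library the estimate stayed negative and the adjusted p ran from 0.0811 to 0.266. With weights that let limma count deviating libraries less, the adjusted p was 0.0299 at a change of -0.42, which is under a 1.5-fold change. With the share of genes at 0 in each library as a covariate, the change was -0.36 and the adjusted p 0.528.

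In the conjunctiva, Cdkn1b stood at 3049, 2186, 2234 and 2247 normalized counts in AL 1, 3, 4 and 5. In CR 1 to CR 5 it stood at 2646, 2890, 2228, 1866 and 1909. AL 1 was the highest of all 9 libraries, and the other 3 AL libraries lay inside the CR range. The estimated log2 change was -0.08 (SE 0.16, 95% interval -0.43 to 0.27, limma adjusted p = 0.915), within a 1.5-fold change in both directions. Without AL 1 it was 0.03 (adjusted p = 0.984).

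Cdkn1c encodes p57, an imprinted gene expressed from the maternal allele and known from differentiating and resting cells. It lies on the reverse strand of chromosome 7 (GRCm38, chr7:143458339-143461050), with 4 blocks of exon sequence and 2039 bases of exon, and an antisense gene that the tables do not list overlaps an exon of it.

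In the cornea, Cdkn1c was near the bottom of the family. It stood at 45.1, 41.5, 36.0, 38.0 and 28.8 normalized counts in AL 1 to AL 5, and at 84.3, 57.5, 78.0 and 57.2 in CR 1 to CR 4. In CR 7 it had 1 read, or 0.929 normalized counts. Thus 4 of the 5 CR libraries were above every AL library and the fifth was far below all of them. The log2 change over all libraries was -0.19 with a wide error (SE 0.92, 95% interval -2.20 to 1.83, limma adjusted p = 0.940). Without CR 7 it was 0.85 (adjusted p = 0.166). The direction of this estimate therefore rests on 1 library and on the processing. With CR 7 kept, 5 of 9 processing alternatives gave an estimate above 0, and the mean normalized count was 55.6 under CR against 37.9 under AL. The part that the other deviations of CR 7 have in its Cdkn1c count was not tested.

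In the conjunctiva, Cdkn1c stood at 434, 299.6, 554 and 401 normalized counts in AL 1, 3, 4 and 5. In CR 1 to CR 5 it stood at 415, 461, 836, 619.9 and 280.4. CR 3 and CR 4 were above every AL library and CR 5 was below every AL library. For this gene the log2 change came to 0.24 (SE 0.28, 95% interval -0.36 to 0.85, limma adjusted p = 0.838), 0.05 without CR 3 and 0.44 without CR 5. The summed count of the 5 skeletal muscle markers was also highest in CR 3, at 86405, and low in AL 3 (9395) and CR 5 (10408), the libraries with the least Cdkn1c, against 28722 to 44442 in the others. Muscle was not alone in this. The summed count of endothelium markers was highest in CR 3 (2037) and lowest in CR 5 (492), as was that of melanocyte markers (198 and 63.2). The fibroblast sum was highest in AL 5 (58882) and also lowest in CR 5 (25864). The part of any of these cells in the Cdkn1c level was not tested. In bulk tissue, fewer cells of a type and less RNA per cell cannot be told apart, here and in every result that follows.

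The INK4 genes Cdkn2a and Cdkn2b lie side by side on the reverse strand of chromosome 4 (GRCm38, chr4:89274471-89294653 and chr4:89306299-89311039). Cdkn2a is counted as 1 gene but has 2 annotated transcripts with separate first exons. The transcript that starts at 89282192 encodes p16, and the one that starts at 89294653 encodes the unrelated protein ARF, which restrains MDM2 and so stabilizes p53. The counts of the 2 are merged in the tables, so every Cdkn2a value below is their sum. The windows of 250 bases before the RefSeq starts are shown because they separate what the counts join. Cdkn2b has a single annotated transcript, and its window is shown beside them.

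GC boxes (GGGCGG), the core of the ROR element (AGGTCA) and cAMP response elements (TGACGTCA) are printed in capitals, each searched on both strands. They do not overlap each other here. The E-box CACGTG was searched too and was in none of the windows of the 6 members with a RefSeq promoter. The first window lies at chr4:89294620-89294869, the second at chr4:89282193-89282442 and the third at chr4:89311033-89311282, all on the reverse strand of GRCm38.p6:
Cdkn2a, ARF start: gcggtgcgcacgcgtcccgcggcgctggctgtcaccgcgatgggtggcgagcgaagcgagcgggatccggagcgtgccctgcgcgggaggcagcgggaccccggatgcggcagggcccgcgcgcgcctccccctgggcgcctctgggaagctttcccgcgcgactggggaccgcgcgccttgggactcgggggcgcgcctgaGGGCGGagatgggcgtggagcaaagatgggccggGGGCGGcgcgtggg
Cdkn2a, p16 start: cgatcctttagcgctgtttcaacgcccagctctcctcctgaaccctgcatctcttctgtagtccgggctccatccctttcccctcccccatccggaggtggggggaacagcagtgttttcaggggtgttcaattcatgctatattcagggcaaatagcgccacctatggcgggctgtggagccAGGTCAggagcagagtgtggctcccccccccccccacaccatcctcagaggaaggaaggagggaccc
Cdkn2b: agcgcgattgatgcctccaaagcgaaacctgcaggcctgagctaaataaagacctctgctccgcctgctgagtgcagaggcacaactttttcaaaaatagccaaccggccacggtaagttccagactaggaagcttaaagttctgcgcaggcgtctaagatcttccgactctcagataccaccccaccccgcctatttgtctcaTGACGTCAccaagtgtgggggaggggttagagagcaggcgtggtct

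The window before the ARF start had 78.4% G and C and 2 GC boxes. The RefSeq start there, 89294619, lies inside the GENCODE transcript that starts at 89294653. The GC box nearer the end of that window is therefore within the GENCODE transcript. The window before the p16 start had 60.0% G and C, no GC box and 1 ROR core. The Cdkn2b window had 53.6% G and C and 1 cAMP response element. Among 32851 RefSeq promoter windows of the same length, the median G and C content was 52.4%. A GC box was present in 32.7% of them, the ROR core in 14.02%, the cAMP response element in 1.55% and the E-box in 6.02%. These matches describe letters and not binding.

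Cdkn2a was a gene of low count. In the cornea it stood at 61.6, 74.3, 61.1, 75.2 and 41.2 normalized counts in AL 1 to AL 5. In CR 1, 2, 3, 4 and 7 it stood at 85.4, 66.9, 31.1, 82.8 and 47.4. CR 1 and CR 4 were above every AL library and CR 3 was below every AL library. The group means were equal within their error, 62.7 ± 13.7 under AL and 62.7 ± 23.3 under CR (SD, n = 5 each). The diet estimate on the log2 scale was -0.06 (SE 0.32, 95% interval -0.73 to 0.61, limma adjusted p = 0.944), so a change of 1.5-fold in either direction was within the error. It turned to between 0.0073 and 0.16 when AL 2, AL 4, CR 3 or CR 7 was left out.

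In the conjunctiva, Cdkn2a was close to the limit of detection. The AL libraries 1, 3, 4 and 5 held 4, 4, 5 and 6 reads. Of the CR libraries, 4 held 0 reads and CR 5 held 9 reads. With 3 reads as the most that a count of 0 allows, each of those 4 libraries could have held up to 2.86 to 3.07 normalized counts. The AL libraries measured 3.22 to 5.45. At 4 to 6 reads these values carry counting error as well, so the limits do not set the groups apart. Summed reads were 19 over 4 AL libraries (exact Poisson 95% interval 11.4 to 29.7) and 9 over 5 CR libraries (4.12 to 17.1), intervals that cover counting error only. A two-sided exact permutation test of the log2 values gave p = 0.0794, and the groups overlapped through CR 5. Without CR 5 the groups did not overlap and the exact p was 0.0286, the smallest that 4 against 4 libraries can give. Without any other single library the exact p was 0.143. CR 5 was the library with the high meibomian gland markers, and their part in its 9 reads was not tested.

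Cdkn2b encodes p15, an inhibitor known to be induced by TGF-beta in epithelial cells. In the cornea it stood at 459, 479.6, 547, 374 and 473 normalized counts in AL 1 to AL 5. In CR 1, 2, 3, 4 and 7 it stood at 376, 305, 428, 406 and 381. All 5 CR libraries were below the AL mean, and 4 AL libraries were above every CR library, with AL 4 inside the CR range. Its log2 change was -0.30 (SE 0.14, 95% interval -0.59 to -0.0027, limma adjusted p = 0.274).

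In the conjunctiva, Cdkn2b stood at 154, 244, 248 and 267 normalized counts in AL 1, 3, 4 and 5. In CR 1 to CR 5 it stood at 110.1, 96.1, 130.3, 137 and 253. CR 1 to CR 4 were below every AL library, while CR 5 lay among the AL libraries. The means were 228 ± 50.4 (SD, n = 4) under AL and 145 ± 62.2 (SD, n = 5) under CR, a ratio of 0.636. The log2 change was -0.70 (SE 0.27, 95% interval -1.28 to -0.13, limma adjusted p = 0.399), the lowest estimate of any member tested in either tissue, and it did not pass after adjustment. Without CR 5 it was -0.92 (adjusted p = 0.117).

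Markers of connective tissue and of macrophages were also lower in the CR conjunctiva, where Cdkn2b had its lowest estimate. All 6 fibroblast markers had a lower estimate under CR there (median log2 change -0.72, 2 called), with summed counts of 39250 to 58882 in AL and 25864 to 51295 in CR libraries, and none of the 6 was at 0 in a whole group. All 7 macrophage markers did as well (median -0.49, 0 called, sums of 2746 to 3758 in AL and 1809 to 2962 in CR). CR 5, with the highest Cdkn2b of the CR libraries, had the lowest fibroblast and macrophage sums and was the library with the high meibomian gland markers. The part of any of these cells in the Cdkn2b values was not tested.

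Cdkn2c encodes p18. It lies on the reverse strand of chromosome 4, apart from the other pair (GRCm38, chr4:109660876-109667189), with 2686 bases of exon. In the cornea it stood at 155, 104.9, 104.8, 158 and 167 normalized counts in AL 1 to AL 5. In CR 1, 2, 3, 4 and 7 it stood at 124, 71.6, 101.5, 120.6 and 121.7. The AL libraries lay in a low pair and a high group of 3, and the CR libraries lay below that high group. By limma the log2 change was -0.35 (SE 0.23, 95% interval -0.83 to 0.12, limma adjusted p = 0.425).

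In the conjunctiva, Cdkn2c stood at 159, 167, 94.7 and 186 normalized counts in AL 1, 3, 4 and 5. In CR 1 to CR 5 it stood at 159, 107.6, 97.5, 174 and 189. Both groups spanned nearly the same range. The estimated log2 change was -0.07 (SE 0.27, 95% interval -0.64 to 0.51, limma adjusted p = 0.961), and it turned to 0.05, 0.03 and 0.07 without AL 5, CR 2 and CR 3.

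Cdkn2d encodes the INK4 protein p19, which is not ARF. It lies on the reverse strand of chromosome 9 (GRCm38, chr9:21288410-21291407), with 1574 bases of exon. In the cornea it stood at 315, 240.3, 266, 229 and 376 normalized counts in AL 1 to AL 5. In CR 1, 2, 3, 4 and 7 it stood at 278, 267, 177, 234 and 154. All 5 CR libraries were below the AL mean, 2 of them below every AL library, and CR 7 was again the lowest. Without CR 7 the estimate was -0.25 (adjusted p = 0.510). For this gene the log2 change came to -0.37 (SE 0.19, 95% interval -0.78 to 0.03, limma adjusted p = 0.325).

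In the conjunctiva, Cdkn2d stood at 326, 247, 341 and 233 normalized counts in AL 1, 3, 4 and 5. In CR 1 to CR 5 it stood at 326, 299, 232, 249.99 and 212. The groups overlapped almost fully. The diet estimate on the log2 scale was -0.12 (SE 0.19, 95% interval -0.53 to 0.29, limma adjusted p = 0.894), within a 1.5-fold change in both directions.

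**Figure D2:**
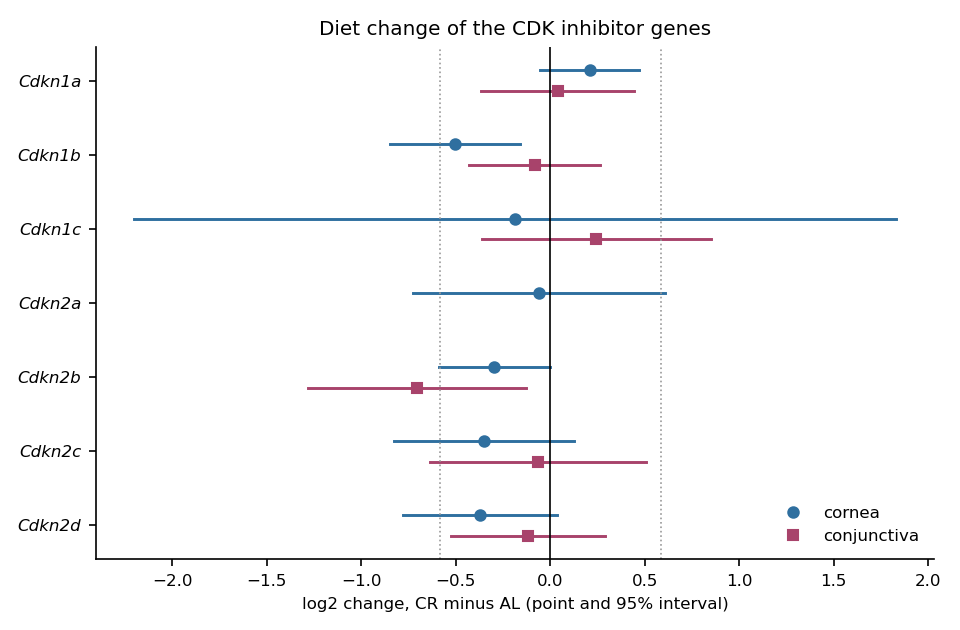
Log2 change, CR minus AL (x axis), with its 95% interval for each CDK inhibitor gene (y axis) in the cornea (circles) and the conjunctiva (squares); dotted lines mark a 1.5-fold change in either direction. Of the 13 intervals, 4 lie within those lines and 3 leave out 0 (Cdkn1b and Cdkn2b in the cornea, Cdkn2b in the conjunctiva), none of which passed after adjustment.

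The diet change was then compared between tissues, gene by gene, as the conjunctiva change minus the cornea change. None of the 6 genes tested in both tissues passed (adjusted p 0.695 or above), where 0.0168% of all 11928 genes tested passed, and 0 of 6 had an unadjusted p under 0.05, against 7.48% of all genes. The smallest p was for Cdkn1b, whose cornea change of -0.50 stood against -0.08 in the conjunctiva. That difference was 0.42 on the log2 scale (SE 0.23, 95% interval -0.05 to 0.89, adjusted p = 0.695). For Cdkn2b the difference ran the other way, at -0.41 (SE 0.31, 95% interval -1.04 to 0.23, adjusted p = 0.788). A lower value in both tissues and a change in 1 tissue only are both within these intervals.

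Levels of 4 of the 7 genes were set apart by tissue. The tables were scaled separately, so levels are given as RPM, side by side and with no test, over 10 cornea and 9 conjunctiva libraries. Cdkn2a stood at 5.40 ± 1.17 RPM in cornea AL and 5.44 ± 2.04 in cornea CR, against 0.392 ± 0.0862 in conjunctiva AL and 0.147 ± 0.329 in conjunctiva CR, where 4 of 5 libraries had 0 reads, so no single ratio holds for it. Cdkn1c went the other way, with 4.08 ± 2.15 in the cornea and 39.3 ± 15.1 in the conjunctiva, a ratio of 9.65.

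Cdkn2b stood at 36.6 ± 6.20 RPM in the cornea and 14.9 ± 5.71 in the conjunctiva, and Cdkn1a at 475 ± 88.3 and 228 ± 40.9. For these 4 genes no cornea library overlapped any conjunctiva library. Cdkn1b, Cdkn2c and Cdkn2d overlapped, with means of 266 and 194, 10.6 and 12.1, and 21.96 and 22.5 RPM in the cornea and the conjunctiva. The 2 samples also differ in their cell types, and tissue and cell makeup cannot be told apart here.

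**Figure D3:**
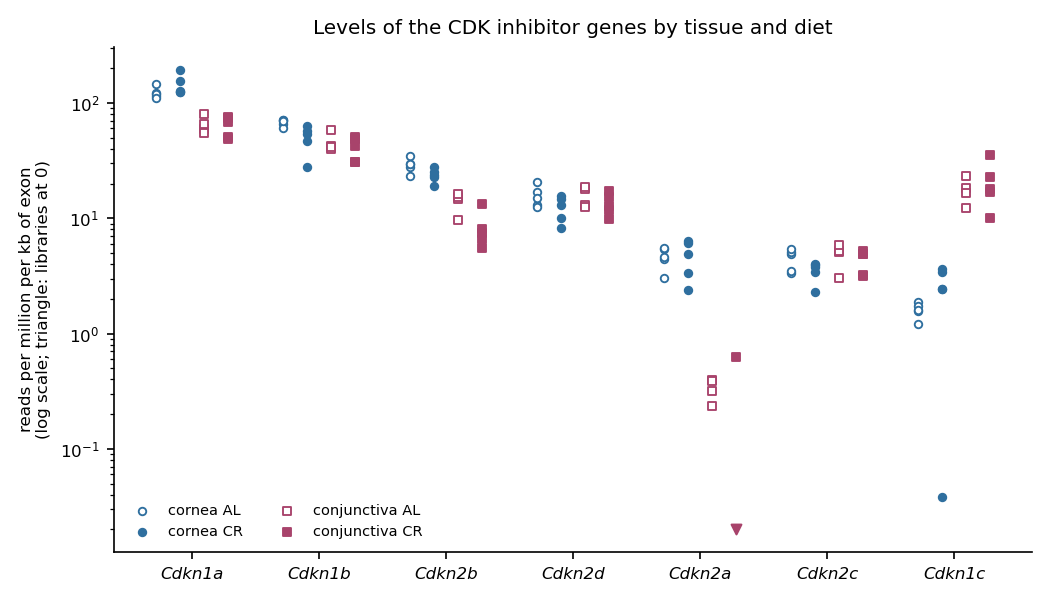
Level of each CDK inhibitor gene in each library in RPM per kb of exon (y axis, log scale), by tissue (blue circles cornea, red squares conjunctiva) and diet (open AL, filled CR); the triangle stands for the 4 conjunctiva CR libraries with 0 Cdkn2a reads. On this scale, which assumes reads along the whole transcript, Cdkn1a and Cdkn1b have the highest means in every group, Cdkn2a is far lower in the conjunctiva than in the cornea and Cdkn1c far higher.

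Levels of different genes can be compared per length only where reads cover whole transcripts. The study's methods name a kit primed at the 3′ end and the labels one that covers transcripts. The order is therefore given per length, followed by where it differed without division by length. Per length, Cdkn1a had the highest mean in every group. In cornea AL it stood at 122.7 ± 13.6 RPM per kb of exon (SD, n = 5), followed by Cdkn1b at 67.4 ± 4.40, Cdkn2b at 29.0 ± 4.16 and Cdkn2d at 15.6 ± 3.29. Each of these was above the next in every library of the group. Cdkn2a (4.61 ± 0.999) and Cdkn2c (4.43 ± 0.955) followed with overlapping ranges, and Cdkn1c was last at 1.602 ± 0.246. That order held in cornea CR, with Cdkn1c overlapping Cdkn2c there through its spread.

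In conjunctiva AL the order began with Cdkn1a at 65.0 ± 11.0 and Cdkn1b at 45.2 ± 8.38 RPM per kb (SD, n = 4), which overlapped. Cdkn1c came next at 17.6 ± 4.55 and overlapped Cdkn2d (15.4 ± 3.17), which overlapped Cdkn2b (13.9 ± 2.94). Cdkn2c (4.78 ± 1.22) and Cdkn2a (0.334 ± 0.0736) were lower than those in every library. In conjunctiva CR the order was again the same, and the neighbours from Cdkn1a down to Cdkn2b overlapped each other.

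In RPM not divided by length, Cdkn2c was above Cdkn2a in cornea AL, at 11.9 ± 2.57 against 5.40 ± 1.17. It also had the higher mean in cornea CR, at 9.36 ± 1.89 against 5.44 ± 2.04. In conjunctiva CR the means of Cdkn2c and Cdkn2b were nearly level, at 11.45 ± 2.69 and 11.40 ± 4.26. Cdkn1a still had the highest mean in every group, but Cdkn1b exceeded it in some conjunctiva libraries. These were AL 1 (263 against 213 RPM), CR 1 (219 against 178) and CR 3 (193 against 172).

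Cdkn1a alone held 49.9% ± 4.28 of the 7 genes' summed level per length in cornea AL libraries and 60.0% ± 5.18 in cornea CR libraries (SD, n = 5 each). Cdkn1b held 27.5% ± 2.06 and 20.4% ± 3.51. Without division by length the Cdkn1a share of the summed RPM was 52.5% ± 4.07 and 63.4% ± 5.23. This share was looked at after the values were seen and was not tested, and the Cdkn1a ranges of 46.1 to 57.2% and 53.9 to 65.3% overlapped. In the conjunctiva the Cdkn1a share was 40.0% ± 5.79 under AL and 42.0% ± 8.12 under CR.

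To place the family, 8 lists of genes around it were examined, from the cyclins they oppose to the factors that senescent cells secrete. Among 9 G1 and S phase cyclins and kinases, 2 were called higher in the cornea and 1 in the conjunctiva (0.749% and 0.223% of all tested genes were called higher). In the cornea these were Ccnd2, a D-type cyclin, up by 1.404 on the log2 scale (SE 0.13, limma adjusted p = 9.2e-06), and Ccnd1, another D-type cyclin, up by 0.86 (SE 0.11, limma adjusted p = 0.000251). In the conjunctiva Ccnd2 rose by 0.99 on the log2 scale (SE 0.17, limma adjusted p = 0.0149), and Ccnd1 had an estimate of 0.66 with an adjusted p of 0.112, which was 0.0304 without CR 3. The AL and CR groups of both cyclins did not overlap in either tissue. Ccnd3, also a D-type cyclin, went the other way without passing. Its estimates were -0.36 in the cornea and -0.39 in the conjunctiva (limma adjusted p = 0.221 and 0.464). Cdk4 and Cdk6, the kinases that INK4 proteins bind, had log2 estimates of 0.29 and 0.08 in the cornea and of -0.11 and 0.15 in the conjunctiva, and neither passed.

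The conjunctiva call of Ccnd2 was lost in 6 of the 9 analyses that left out 1 library. The adjusted p was then 0.0649 without AL 3, 0.0798 without AL 4, 0.0527 without AL 5, 0.0558 without CR 1, 0.0732 without CR 2 and 0.0510 without CR 4.

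Of 22 proliferation genes, 16 had a lower estimate under CR in each tissue, with a median log2 change of -0.24 in the cornea and -0.21 in the conjunctiva. In the cornea 1 was called lower, where 0.472% of all tested genes were. There 5 were lower at an unadjusted p under 0.05, against 9.55% of all tested genes. None was called in the conjunctiva, where 1 had an unadjusted p under 0.05, against 9.40% of all tested genes. The called gene was Cdk1, the kinase that drives entry into mitosis, at a log2 estimate of -0.67 (SE 0.15, limma adjusted p = 0.0280). Its adjusted p rose to 0.0702 without AL 1, 0.0867 without AL 2, 0.0945 without AL 5, 0.0849 without CR 2 and 0.0969 without CR 3. Top2a, a topoisomerase of dividing cells, had an adjusted p of 0.0436 and a change of -0.53, under the 1.5-fold limit. Mki67, which encodes the proliferation marker Ki-67, had an estimate of -0.45 in the cornea (adjusted p = 0.124) and of -0.10 in the conjunctiva (adjusted p = 0.950).

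Lists upstream of the inhibitors had no called gene in either tissue, by limma or by voom. Limma called 1.22% (cornea) and 0.359% (conjunctiva) of all tested genes, so this is not in itself a result about these lists. Of the regulators of CDK inhibitor genes, 15 of 19 tested had a higher estimate in the cornea (median 0.22, 6 with an unadjusted p under 0.05 and higher, against 8.52% of all genes) and 10 of 20 in the conjunctiva (median 0.02, 4 with an unadjusted p under 0.05 and higher, against 4.53%). They included the TGF-beta receptors Tgfbr1 and Tgfbr2, at 0.45 and 0.71 in the cornea (adjusted p = 0.0616 and 0.115) and -0.10 and -0.24 in the conjunctiva. Cul1, the scaffold of the ubiquitin ligase that acts on p27, had an estimate of 0.32 in the cornea (adjusted p = 0.108). Genes that raise the inhibitors and genes that lower them share this list, so its medians give no direction for the inhibitors.

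The 11 Polycomb genes, whose products hold the Cdkn2a locus silent, had a median of 0.06 in each tissue, with 0 genes at an unadjusted p under 0.05 in the cornea and 1, higher, in the conjunctiva. Cbx7 had the smallest p of these in the cornea, at an estimate of -0.37 (adjusted p = 0.305), and Cbx8 in the conjunctiva, at 0.62 (adjusted p = 0.531). Suz12, a core subunit of Polycomb repressive complex 2, stood at 0.26 and 0.10 (adjusted p = 0.355 and 0.913). The p53 pathway, which acts on Cdkn1a, had medians of -0.05 over 16 tested genes in the cornea and -0.14 over 18 in the conjunctiva. In it 3 and 1 genes had an unadjusted p under 0.05. The shares of all tested genes at that p, for this list and the Polycomb genes alike, were 18.1% and 9.40%. Trp53 itself had an estimate of 0.10 in the cornea and -0.54 in the conjunctiva (adjusted p = 0.929 and 0.422). Plk2, a p53 target, had an estimate of 0.58 in the cornea (adjusted p = 0.112), and Mdm2, which directs p53 for degradation, of -0.31 (adjusted p = 0.204). Targets of p53 and genes that act against it share the p53 list, so its medians give no direction of p53 activity.

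Of the 13 genes of the RB and E2F list, downstream of the inhibitors, 7 had a higher estimate in the cornea (median 0.08) and 6 in the conjunctiva (median -0.23). None was called by limma or voom, where limma called 1.22% (cornea) and 0.359% (conjunctiva) of all tested genes. An unadjusted p under 0.05 was found for 3 and 2, against 18.1% and 9.40% of all tested genes. E2f7, a repressor of the E2F family, had an estimate of 0.60 in the cornea with groups that did not overlap (adjusted p = 0.0616). E2f1, an activator, had an estimate of -0.85 in the conjunctiva (adjusted p = 0.350), and Tfdp2, a partner of E2F proteins, of 0.60 (adjusted p = 0.0734).

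Of 8 other markers of senescence, 0 were called in either tissue, by limma or voom, where limma called 1.22% and 0.359% of all tested genes. With so low a background, 0 of 8 is not in itself a result about them. Their medians were 0.14 in the cornea and 0.07 in the conjunctiva. At an unadjusted p under 0.05 there were 0 and 1 of them, against 18.1% and 9.40% of all tested genes. Lmnb1, the lamin that is lost in senescent cells, had an estimate of 0.10 in the cornea and 0.01 in the conjunctiva. Glb1, which encodes the lysosomal beta-galactosidase used as a senescence stain, had an estimate of -0.41 and 0.01 (Lmnb1 and Glb1 were picked after their values were seen). Markers lost and markers gained in senescence share this list, so its medians give no direction of senescence. Hmgb1 and Bcl2 had estimates of 0.41 and 0.38 in the conjunctiva (adjusted p = 0.386 and 0.561). Dpp4 had lower estimates under CR, -0.32 in the cornea and -0.59 in the conjunctiva (limma adjusted p = 0.698 and 0.584).

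Secreted factors associated with senescence had a lower estimate under CR for 28 of 33 tested genes in the conjunctiva, with a median log2 change of -0.52, and for 10 of 20 in the cornea, with a median of 0.01. In the conjunctiva 10 of the 33 were lower at an unadjusted p under 0.05 (4.87% of tested genes), and 1 was called lower (0.136% of all tested genes). The called gene was Plat, tissue plasminogen activator, at a log2 estimate of -1.04 (SE 0.20, limma adjusted p = 0.0343). Its call was lost in 7 of the 9 analyses that left out 1 library, with adjusted p values of 0.129 without AL 1, 0.1004 without AL 3, 0.121 without AL 4, 0.115 without AL 5, 0.0813 without CR 1, 0.109 without CR 2 and 0.0741 without CR 4.

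Mmp9, a gelatinase, had an estimate of -1.12 (adjusted p = 0.0767), Areg, an EGF receptor ligand, of -0.74 (adjusted p = 0.171), and Cxcl5, a neutrophil chemokine, of -2.13 (adjusted p = 0.138). These factors are made by fibroblasts and macrophages as well, whose markers were lower in the same libraries, and the part of those cells in the list was not tested.

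**Figure D4:**
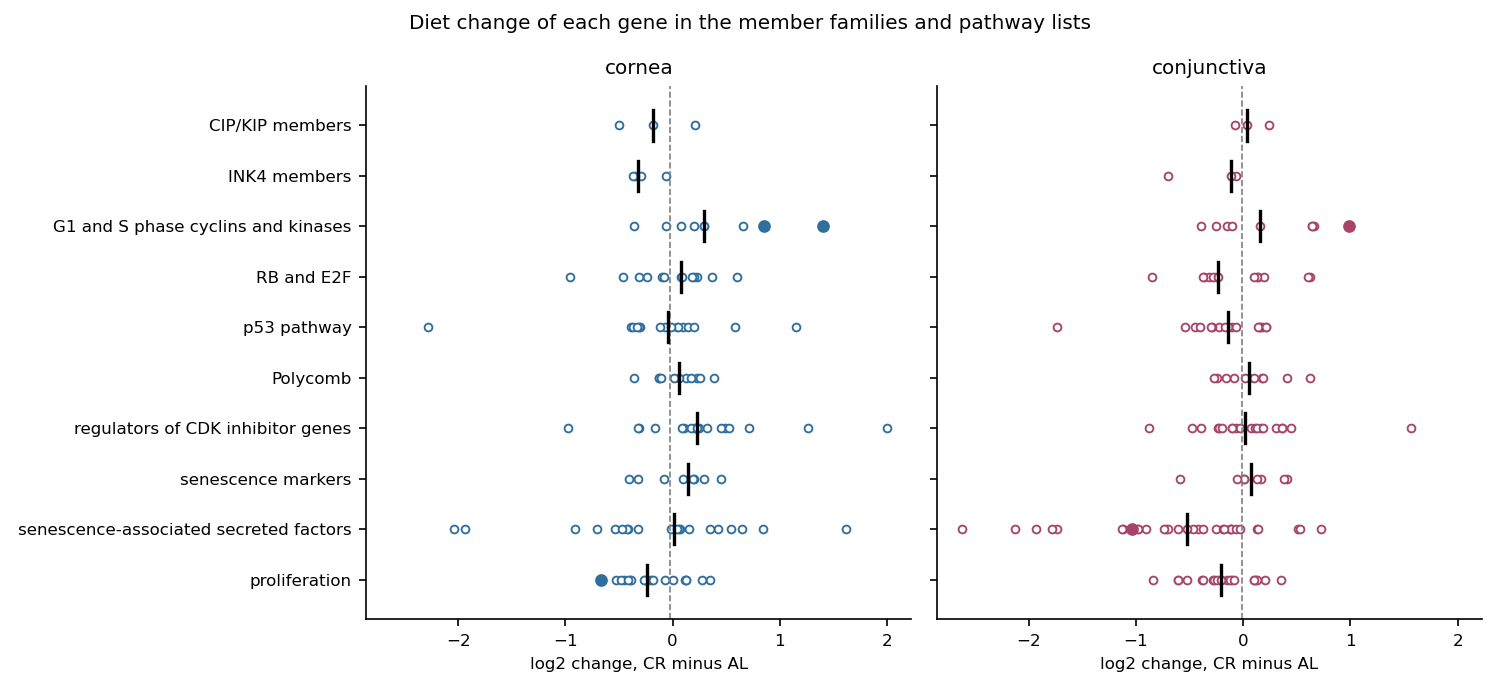
Log2 change, CR minus AL (x axis), of each tested gene in the CDK inhibitor families and the 8 related lists (y axis), in the cornea and the conjunctiva; filled points were called, black bars are list medians and the dashed line is the median of all tested genes. The called genes are Ccnd1, Ccnd2 and Cdk1 in the cornea and Ccnd2 and Plat in the conjunctiva, and the secreted factors lie mostly left of 0 in the conjunctiva.

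The pattern of each inhibitor over the 19 libraries was compared with that of every gene whose mean was 50 normalized counts or more in both tissues, on log2 values centered within each tissue. The libraries share diet groups and differences in depth, so these Pearson correlations are descriptions. Cdkn1a was most like Plec (r = 0.906), Snrpc (0.871) and Slc22a21 (0.866). Cdkn1b was most like Gtpbp1 (r = 0.899), Isoc2a (0.853) and Hexa (0.838). Cdkn1c was most like Pccb (r = 0.890), 2900076A07Rik (0.887) and Emc9 (0.883). Cornea CR 7, with its 1 read of Cdkn1c, weighed on these last values. Without it they were 0.756 for Pccb, 0.300 for 2900076A07Rik and 0.436 for Emc9, and that of Gtpbp1 with Cdkn1b was 0.777.

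Among the INK4 genes, Cdkn2b was most like Commd1 (r = 0.821), Katna1 (0.751) and Serf1 (0.747), Cdkn2c most like Pola1 (r = 0.823), Spc25 (0.793) and Stk38l (0.791), and Cdkn2d most like Retreg3 (r = 0.829), Fam83h (0.826) and Spsb2 (0.826). For some of these genes the likeness came mainly from 1 tissue. Katna1 had r = 0.307 with Cdkn2b in the cornea and 0.838 in the conjunctiva, Serf1 0.314 and 0.933, and 2900076A07Rik 0.930 and 0.315 with Cdkn1c. No member was among the 3 genes most like another member. The highest correlation between members was that of Cdkn1b with Cdkn2d, r = 0.738, and the lowest that of Cdkn1a with Cdkn2d, r = -0.347. Without cornea CR 7 these were 0.603 and -0.429, and the lowest was then that of Cdkn1c with Cdkn2c, r = -0.550.

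The same centered values followed the share of genes at 0, a sign of library complexity, to different degrees. The correlation over 19 libraries was 0.689 for Cdkn1a, -0.526 for Cdkn1b, -0.617 for Cdkn2d, -0.404 for Cdkn1c, -0.223 for Cdkn2b and 0.0791 for Cdkn2c. On average that share was higher in the CR than in the AL cornea libraries, with overlapping ranges of 39.9 to 47.6% and 38.7 to 45.1%. With the share as a covariate the cornea changes of Cdkn1a, Cdkn1b and Cdkn2d were 0.04, -0.36 and -0.13. The share differed with diet there, so the parts of share and diet in these estimates cannot be told apart.

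**Figure D5:**
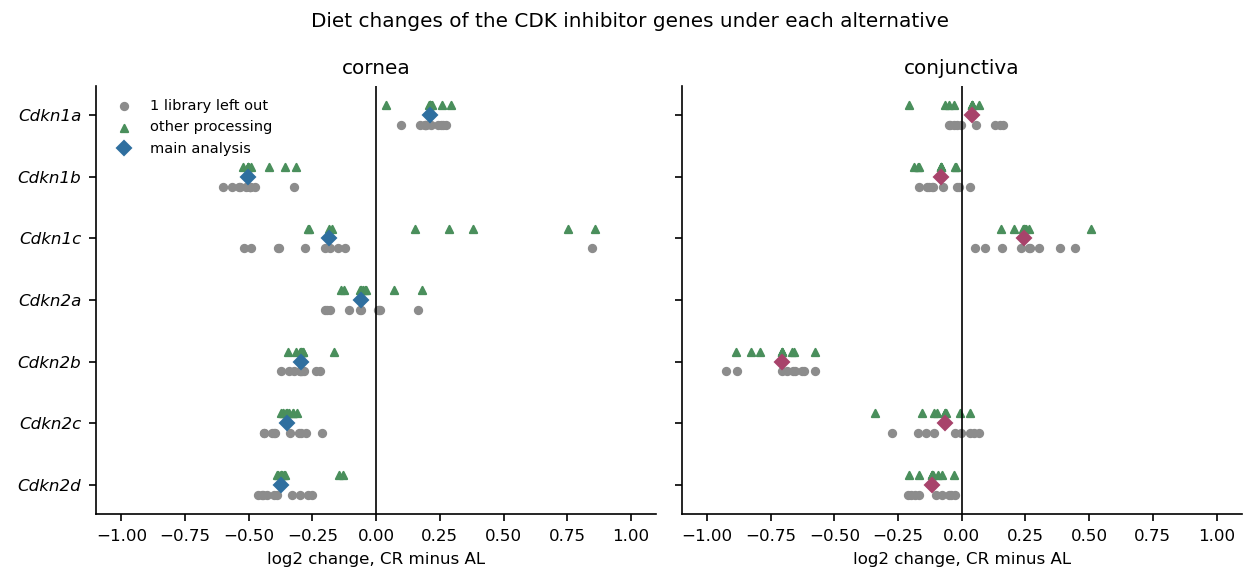
Log2 change, CR minus AL (x axis), of each CDK inhibitor gene (y axis) in the cornea and the conjunctiva in the main analysis (diamonds), with other processing (triangles) and with 1 library left out (circles). Cdkn1b, Cdkn2b, Cdkn2c and Cdkn2d stay left of 0 in the cornea, and Cdkn2b and Cdkn2d in the conjunctiva. Cdkn1a in the cornea and Cdkn1c in the conjunctiva stay right of 0. Cdkn1c in the cornea crosses to 0.85 when CR 7 is left out.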

How the data were processed

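Bulk RNA sequencing of 19 mouse libraries was analysed, with groups taken from the deposited labels. Per the study's methods, the authors' single-end reads went through cutadapt, STAR (on mm10) and HTSeq gene counting, with size factors from DESeq2. The labels name GRCm39 instead, and name a library kit other than that of the methods, so build, kind of library and use of strand in counting are unsettled. Versions are not given in the sources used here. The deposited values are log2 of the count divided by a size factor, plus 1, in 1 table per tissue, scaled separately.

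Undoing the log2 gave normalized counts, and dividing by each library's step gave reads, of which 100% were whole within 0.01. Of 24557 rows per table, 10 shared a symbol and were left out, and 483 had no gene identifier. Reads per library ranged from 10354377 to 14681466. A count of 0 allows up to 3 reads, or 2.27 to 3.37 normalized counts, and this and the intervals for read counts cover counting error only.

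Diets were compared within each tissue with limma 3.58.1 (statmod 1.5.0, R 4.3.3) on log2(normalized count + 1), moderated by robust empirical Bayes with an intensity trend. Genes whose mean reached 10 normalized counts were tested. Genes were called at a Benjamini-Hochberg adjusted p under 0.05 and a fold over 1.5. Fold changes on this scale understate the change of low genes. The tissue difference was tested by dividing the difference of both log2 changes by its standard error, with degrees of freedom after Satterthwaite. This takes the tissues as independent, although the study took several tissues from each mouse and title numbers are shared. Deviations of the 8 pairs of libraries with the same diet and number correlated from -0.420 to 0.144, and no library was most like its own number. The procedure was tested on simulated data. The labels do not state separate animals, while the study's figure legends count the compared groups as mice. The p-values measure the spread between these libraries, technical spread included. Other pseudocounts, filters, scalings, voom on the recovered reads, library weights, a covariate and leaving out each library were tried.

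Named besides the 7 members were called genes of the pathway lists, up to 3 more per list with the smallest p in either tissue, and the 3 genes most like each member. Cdk4, Cdk6, Lmnb1 and Glb1 were added after their values were seen. One gene of the Polycomb list is not reported here. The members and lists were chosen with earlier results of these data known. Coordinates are from GENCODE on GRCm38, and promoters from RefSeq on GRCm38.p6, which matched 6 of 7 members. No entry was matched for Cdkn1c.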

Additional observations from a re-analysis of the deposited data

Results flagged for a closer look

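Among the CDK inhibitor genes, 28 groups of 4 or 5 libraries were searched for a library whose gap to its nearest neighbour took up an unusual part of the range (Dixon's 95% limit), and 3 were found. Such a search finds about 1 in 20 groups by chance. Cdkn1b in conjunctiva AL 1 stood at 3049 normalized counts, with the other 3 AL libraries between 2186 and 2247. Cdkn2a in conjunctiva CR 5 stood at 9.97 normalized counts, with the other CR libraries at 0. Cdkn2b in conjunctiva CR 5 stood at 253, with the other CR libraries between 96.1 and 137. Both of the last belong to the library with high meibomian gland markers, whose part in them was not tested.

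Cdkn1c in cornea CR 7, at 1 read, was far from the rest by eye but did not pass the limit, since the other 4 libraries were also spread.

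Among the named pathway genes, 8 of 108 groups were found in the same way. In cornea CR 7, Ccne2 stood at 333 normalized counts (nearest 205), Hmgb1 at 1983 (nearest 1487) and Areg at 399 (nearest 189). Cbx8 in cornea AL 3 stood at 20.7 (nearest 46.9). In conjunctiva AL 3, Cxcl5 stood at 659 (nearest 213) and Areg at 471 (nearest 292), and in conjunctiva CR 5, Cxcl5 stood at 162 (nearest 49.7) and Suz12 at 1805 (nearest 1109).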

How the results depend on the processing

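No CDK inhibitor gene was called under any alternative, whether of pseudocount, filter, scaling, voom, library weights, covariate, replicate block or left-out library. What moved were counts over all genes, genes near the threshold and the signs of estimates, of which the Cdkn1c difference between tissues (0.43), Areg in the cornea (0.42), Suz12 in the cornea (0.26), the Cdkn2d difference (0.25), Cbx7 in the conjunctiva (-0.24) and Top2a in the conjunctiva (-0.21) were the farthest from 0. The cause was not tested. The covariate was each library's share of genes without reads.

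For Cdkn1c in the cornea (-0.19) the estimate was 0.15 with a pseudocount of 10, 0.38 with quantile normalization, 0.28 with weights, 0.86 with the covariate and 0.75 with the replicate block. Its difference between tissues (0.43) was -0.13, -0.35 and -0.49 with quantile normalization, the covariate and the block. Cdkn2a in the cornea (-0.06) was 0.070 with quantile normalization and 0.18 with the covariate. Cdkn1a in the conjunctiva (0.04) was -0.068 with quantile normalization, -0.051 with RPM scaling, -0.21 with the covariate and -0.032 with the block, under which Cdkn2c in the conjunctiva was 0.031 and the Cdkn2d difference between tissues -0.022. With the covariate, Trp53 and Suz12 in the cornea were -0.76 and -0.0048, and in the conjunctiva Plk2 was -0.11, Mdm2 0.081, Suz12 -0.18 and Cbx7 0.043. With the block, Trp53 and Areg in the cornea were -0.21 and -0.046.

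Genes called in the cornea numbered 150, and 99 with voom, 705 with weights, 62 with the covariate and 46 with the block. In the conjunctiva they numbered 50 (31 higher, 19 lower), and 149 with weights and 10 with the block. The split there was 29 higher and 27 lower with quantile normalization and 22 and 24 with RPM scaling. Between tissues 2 genes passed, and 1 with RPM scaling, 0 with the covariate and 1 with the block. Voom and weights were not run for the difference between tissues.

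The Cdk1 call in the cornea was lost with the covariate (adjusted p = 0.136) and the block (0.0986), and in the conjunctiva that of Ccnd2 with the block (0.0929) and that of Plat with no filter (0.0549), RPM scaling (0.0523), the covariate (0.0816) and the block (0.169). Weights brought Ccne1, E2f7 and Tyms in the cornea and Ccnd1, Tfdp2, Mmp9 and Cxcl5 in the conjunctiva past the threshold, and the covariate brought Top2a past it in the cornea. So did leaving out single libraries, for Ccne1 and Plk2 (cornea AL 4), E2f7 (AL 4 or CR 7), Tyms (AL 4 or CR 1) and Top2a (CR 2), and in the conjunctiva for Ccnd1 and Tfdp2 (CR 3), Mmp9 (AL 3 or CR 3) and Cxcl5 (CR 5).

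Leaving out 1 library at a time gave 53 to 536 called genes in the cornea, 26 to 127 in the conjunctiva and 0 to 7 for the difference. Estimates that changed sign ran from -0.52 to 0.85 for Cdkn1c in the cornea, -0.60 to 0.76 for its difference, and -0.20 to 0.16 for Cdkn2a in the cornea. Those of Cdkn1a, Cdkn1b and Cdkn2c in the conjunctiva ran from -0.049 to 0.16, -0.17 to 0.033 and -0.28 to 0.066. In the cornea E2f1, Trp53 and Cbx8 ran from -0.26 to 0.098, -0.12 to 0.50 and -0.20 to 0.42. In the conjunctiva Cbx7, Suz12, E2f7, Mki67 and Top2a ran from -0.37 to 0.029, -0.071 to 0.21, -0.074 to 0.22, -0.28 to 0.15 and -0.39 to 0.032.

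Title numbers did not pair the libraries, since the deviations of same-numbered AL and CR libraries had correlations of -0.297 to 0.288 (cornea) and -0.0619 to 0.0526 (conjunctiva). Depth limits Cdkn2a in the conjunctiva, at 0 to 9 reads per library.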
